A study of Mus musculus with 12 samples.

Results

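The uroplakins are the membrane proteins of the urothelium, the epithelium that lines the renal pelvis, ureter and bladder. They were followed here in whole kidney tissue of mice with chronic kidney disease (CKD), with and without iron. The gene names Upk1a, Upk1b, Upk2, Upk3a and Upk3b were looked up in the deposited expression table, and each was found in 1 row, giving 5 genes of 22053 rows. The table gives FPKM, which are fragments per kilobase of transcript relative to the mapped total of each mouse. All 5 genes had at least 1 FPKM in at least 4 mice and so entered the fit, with 13148 genes tested in all.

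RNA came from 12 wild-type C57BL/6 mice, 4 in each of 3 groups, and each mouse gave 1 library. CKD mice ate a diet with 0.2% adenine for 8 weeks, from 8 to 16 weeks of age, and received PBS i.p. each week. CKD+Fe mice ate the same diet and received iron dextran i.p. each week at 0.5 g/kg, while control mice ate the diet without adenine and received PBS. The mice are named by the numbers in their labels, and no batch, sex or dissection of the pelvis is labelled. The tubule markers Lrp2, Umod and Slc12a3 were at 19.4 FPKM or more in every mouse. The implied depth, roughly estimated from the FPKM step that a single read makes, ran from 18700000 to 26300000 reads per mouse. Control mouse 042301, CKD mouse 110310 and CKD+Fe mouse 042702 were already known to stand apart from their groups, by measures not shown here. The fit without these mice was not planned and was added after the data were seen. Uroplakin calls and signs that change without them are given with both values. The r values, spreads and ranks below were made with all 12 mice.

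Uroplakins assemble in pairs. The tetraspanins uroplakin 1a and 1b each leave the endoplasmic reticulum with a partner, uroplakin 2 for 1a and uroplakin 3a or 3b for 1b, and the pairs pack into the rigid plaques that cover the umbrella cells facing the urine. In the kidney this epithelium covers the papilla and the pelvic wall, a small part of the organ. Upk3b and Upk1b are also known from mesothelium, the flat covering of abdominal organs. In whole tissue, fewer urothelial cells and less uroplakin RNA per cell cannot be told apart.

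Promoter sequences were available for 3 of the 5 genes, Upk1a, Upk3a and Upk3b, and are shown because Upk1a and Upk3a varied closely together between mice and Upk3b less so. Each runs 5′ to 3′ on the strand of the gene, from 250 bases before to 50 bases after the gene start, in RefSeq annotation of GRCm38.p6. Capitals mark letters that match a searched motif on either strand.
Upk1a, chr7:30612685-30612984, minus strand: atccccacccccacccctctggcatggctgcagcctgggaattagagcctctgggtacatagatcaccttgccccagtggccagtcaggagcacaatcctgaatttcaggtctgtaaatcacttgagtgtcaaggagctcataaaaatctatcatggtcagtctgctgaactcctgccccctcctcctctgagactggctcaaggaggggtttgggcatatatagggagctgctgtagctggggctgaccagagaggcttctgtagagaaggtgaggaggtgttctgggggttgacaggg
Upk3a, chr15:85016891-85017190, plus strand: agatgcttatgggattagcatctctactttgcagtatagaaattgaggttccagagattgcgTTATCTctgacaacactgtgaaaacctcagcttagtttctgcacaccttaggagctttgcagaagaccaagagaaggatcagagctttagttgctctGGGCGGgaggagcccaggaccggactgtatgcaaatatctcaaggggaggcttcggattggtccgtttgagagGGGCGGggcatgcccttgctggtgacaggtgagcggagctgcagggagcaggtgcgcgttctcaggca
Upk3b, chr5:136038246-136038545, plus strand: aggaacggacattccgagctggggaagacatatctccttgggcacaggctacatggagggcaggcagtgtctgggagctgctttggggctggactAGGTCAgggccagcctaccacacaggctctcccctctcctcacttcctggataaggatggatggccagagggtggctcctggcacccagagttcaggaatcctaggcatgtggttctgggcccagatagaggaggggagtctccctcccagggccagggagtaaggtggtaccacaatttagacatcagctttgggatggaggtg

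Both strands were searched for 5 motifs. The core promoter motif, or TATA box, was searched as the letters TATAAA. The GC box bound by Sp1 was searched as the letters GGGCGG, and the motif of the GATA factors was searched as the letters AGATAA. The motif of grainyhead factors was searched as the letters AACCNGTT, and the nuclear receptor half-site was searched as the letters AGGTCA. None of the matched letters overlapped. The Upk3a window held 2 GC boxes, at -91 and -18 bases from the gene start, and 1 GATA match on the minus strand at -188. The Upk3b window held 1 half-site, at -155, and the Upk1a window held none of the 5 motifs in the exact letters searched. The Upk1a window did hold the letters TATATA, which were not searched. The Upk1a start used for this window lies inside the gene end of 30612847 given below. Of 32851 promoters of the same length, 35.7% held the GC box, 11.2% the GATA motif, 16.3% the half-site, 13.6% the TATA box and 2.09% the grainyhead motif. The matches describe letters only.

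Uroplakin values spread widely between mice of the same group. In each group at least 1 mouse had several FPKM of Upk1b, Upk2 and Upk3a, and others were close to 0. The high mice were 012822 and 042301 among control, 021320 among CKD, and 062910 and 111710 among CKD+Fe mice. None of the 5 genes passed an adjusted p of 0.05 between any groups (limma).

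**Figure D1:**
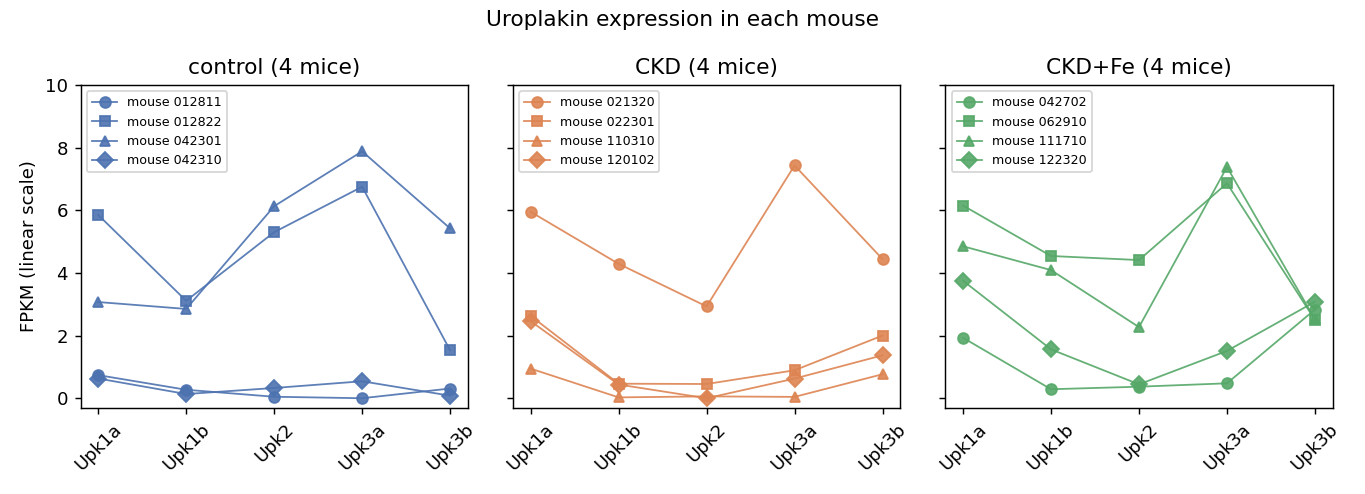
FPKM of the 5 uroplakin genes (vertical axis, linear) in each of the 4 mice of the control, CKD and CKD+Fe groups, with 1 line per mouse. For Upk3a, 5 mice lie between 6.75 and 7.88 FPKM and the other 7 between 0 and 1.51 FPKM, and both kinds of mice occur in every group.

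Upk1a encodes the tetraspanin that pairs with uroplakin 2. The gene (ENSMUSG00000006313) lies on chromosome 7 of GRCm38 from 30603092 to 30612847 on the minus strand and has 8 exons. Its expression was 0.738, 5.85, 3.07 and 0.629 FPKM in control mice 012811, 012822, 042301 and 042310. It was 5.95, 2.63, 0.945 and 2.46 FPKM in CKD mice 021320, 022301, 110310 and 120102, and 1.93, 6.15, 4.85 and 3.75 FPKM in CKD+Fe mice 042702, 062910, 111710 and 122320. The groups overlapped. Upk1a reached 1 FPKM in 9 of 12 mice, as Upk3b did, against 6 mice for Upk1b and Upk3a and 5 for Upk2. The group means, in the order control, CKD and CKD+Fe, were 2.57 ± 2.46, 2.99 ± 2.11 and 4.17 ± 1.79 FPKM (SD, n = 4), from lowest to highest, and no neighbours in this order differed beyond their spread.

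Upk1b encodes the tetraspanin that pairs with uroplakin 3a or 3b. The gene (ENSMUSG00000049436) lies on chromosome 16 from 38773184 to 38800203 on the minus strand, with 8 exons. In the same order of mice, its expression was 0.270, 3.11, 2.85 and 0.134 FPKM in control mice. In CKD mice it was 4.29, 0.464, 0.0270 and 0.437 FPKM, and in CKD+Fe mice 0.287, 4.54, 4.09 and 1.56 FPKM. Mice 012822, 042301, 021320, 062910 and 111710 thus had 2.85 FPKM or more and no other mouse exceeded 1.56 FPKM. The lowest value, in CKD mouse 110310, corresponds to about 1 read, and the highest, in CKD+Fe mouse 062910, to about 161. The mean was 2.62 ± 2.03 FPKM in CKD+Fe mice, 1.59 ± 1.61 FPKM in control mice and 1.3 ± 2 FPKM in CKD mice (SD, n = 4).

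Upk2 encodes the single-pass partner of uroplakin 1a and lies on chromosome 9 (ENSMUSG00000041523, 44452716 to 44454767, minus strand, 5 exons). In the same order of mice, control values were 0.0470, 5.30, 6.13 and 0.327 FPKM. CKD values were 2.93, 0.454, 0.0593 and 0 FPKM, and CKD+Fe values were 0.368, 4.41, 2.27 and 0.443 FPKM. The 5 highest mice were those named for Upk1b, and CKD mouse 120102 was listed at 0. Upk2 was the only member whose 2 highest values were both from control mice. The mean was 2.95 ± 3.21 FPKM in control mice, 1.87 ± 1.9 FPKM in CKD+Fe mice and 0.86 ± 1.39 FPKM in CKD mice (SD, n = 4).

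Upk3a encodes the partner of uroplakin 1b with a cytoplasmic tail, and its loss in mice is known to disturb the plaques. The gene (ENSMUSG00000022435) lies on chromosome 15 from 85017141 to 85022560 on the plus strand, with 6 exons. Control values were 0, 6.75, 7.88 and 0.541 FPKM, and CKD values were 7.43, 0.892, 0.0427 and 0.626 FPKM. CKD+Fe values were 0.476, 6.86, 7.38 and 1.51 FPKM. The 5 high values lay close together, from 6.75 FPKM in control mouse 012822 to 7.88 FPKM in control mouse 042301, with the CKD and CKD+Fe mice between them. Group means were 3.79 ± 4.10, 2.25 ± 3.47 and 4.06 ± 3.57 FPKM (SD, n = 4) in control, CKD and CKD+Fe mice.

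Upk3b, the other partner of uroplakin 1b, followed a different order of mice. The gene (ENSMUSG00000042985) lies on chromosome 5 from 136038496 to 136046487 on the plus strand, with 6 exons. Control values were 0.310, 1.53, 5.42 and 0.0811 FPKM, CKD values were 4.44, 2, 0.766 and 1.37 FPKM, and CKD+Fe values were 2.83, 2.5, 2.52 and 3.08 FPKM. In CKD+Fe mice it was even, within 2.5 and 3.08 FPKM, although Upk3a ran from 0.476 to 7.38 FPKM in the same mice. The highest CKD+Fe mouse for Upk3b was 122320, while 062910, the highest for Upk1a, Upk1b and Upk2, was the lowest. Group means were 1.83 ± 2.47, 2.15 ± 1.61 and 2.73 ± 0.274 FPKM (SD, n = 4) in control, CKD and CKD+Fe mice. For Upk1b, Upk2, Upk3a and Upk3b as for Upk1a, neighbouring group means lay within the spread between mice.

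CKD mice were compared with control mice to ask whether the uroplakin transcripts change in the diseased kidney. None of the 5 genes was called in either direction (limma on log2(FPKM + 1), adjusted p under 0.05 over all genes tested), none had an unadjusted p under 0.05, and the exact permutation p ran from 0.314 to 0.943. Over all genes tested, 54.6% were called higher and 13.3% lower, or 27.2% and 31% after median-of-ratios rescaling and 23.3% and 25.6% after quantile normalization. The 2 groups overlapped for all 5 members, while 55.1% of all genes had groups that did not overlap. Log2 fold changes of FPKM + 1 were 0.28 for Upk1a, -0.25 for Upk1b, -0.84 for Upk2, -0.49 for Upk3a and 0.39 for Upk3b, with a median of -0.25 against 0.502 for all genes. The interval for Upk2, with the smallest p of the 5, ran from -2.27 to 0.58 (standard error 0.66, adjusted p = 0.272, limma). That for Upk3a ran from -2.23 to 1.24, so changes of more than 2 log2 units downward lay within it.

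In this comparison the call of Upk3b depended on 1 mouse. Without control mouse 042301, which had 5.42 FPKM, the log2 fold change between CKD and control mice was 0.91 (adjusted p = 0.0331, limma), and without the 3 mice that stood apart it was 1.15 (adjusted p = 0.00987). With quantile normalization and all mice it was -0.36 (adjusted p = 0.532).

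**Figure D2:**
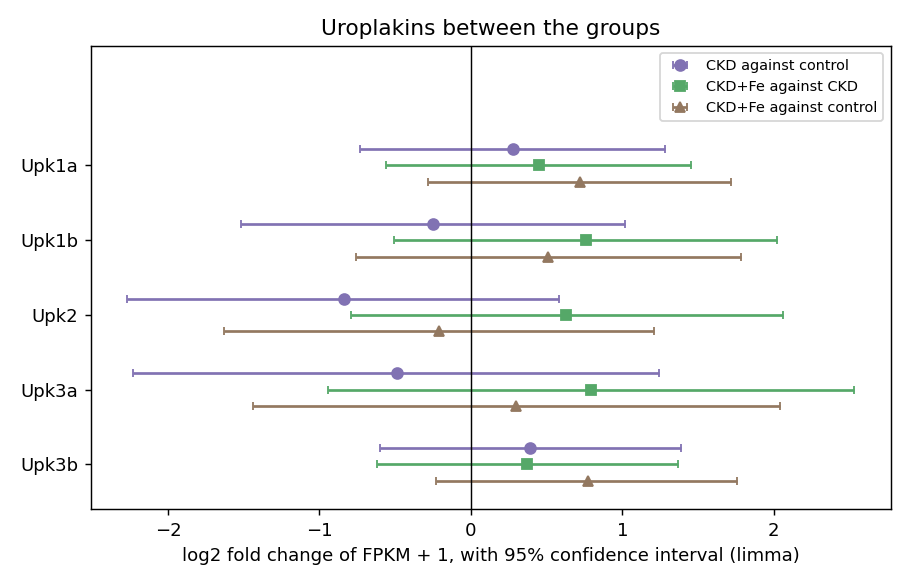
Log2 fold changes of FPKM + 1 (horizontal axis) of the 5 uroplakin genes in the 3 comparisons, with bars for the 95% confidence interval from limma. Every interval crosses 0, and the widest are those of Upk3a, from -2.23 to 1.24 in CKD against control mice.

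CKD+Fe mice were compared with CKD mice to ask whether iron dextran moves the same transcripts. None of the 5 members was called (limma, adjusted p from 0.958 to 0.982), and none had an unadjusted p under 0.05. Over all genes tested 0.00761% were called higher and 0.00% lower, and 2.44% had groups that did not overlap, as none of the members did. Log2 fold changes were 0.45 for Upk1a, 0.76 for Upk1b, 0.63 for Upk2, 0.79 for Upk3a and 0.37 for Upk3b, with exact permutation p from 0.314 to 0.4. The interval for Upk3a ran from -0.94 to 2.53 and that for Upk1b from -0.51 to 2.02. CKD mice held 1 mouse with high Upk3a and CKD+Fe mice held 2, and the median of the 5 log2 fold changes was 0.63 against -0.000503 for all genes.

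CKD+Fe mice were also compared with control mice, with 0 of 5 members called and 0 with an unadjusted p under 0.05 (limma). The exact permutation p ran from 0.257 to 0.8. Over all genes tested 54.4% were called higher and 11.0% lower, or 26.1% and 29.3% after median-of-ratios rescaling and 19.8% and 22.6% after quantile normalization, and 60.2% had groups that did not overlap, against none of the members. Log2 fold changes were 0.72 for Upk1a (standard error 0.47, adjusted p = 0.187, limma) and 0.77 for Upk3b (standard error 0.46, adjusted p = 0.157). They were 0.51, -0.21 and 0.30 for Upk1b, Upk2 and Upk3a. Without control mouse 042301 the log2 fold change of Upk3b was 1.28 (adjusted p = 0.00601), and without control mouse 012822 that of Upk1a was 1.12 (adjusted p = 0.0395). Other settings went the other way. Over all alternatives Upk3b ran from 0.0 to 1.64 (adjusted p from 0.00364 to 0.994, limma). Upk1a ran from -0.05 to 1.12 (adjusted p from 0.0395 to 0.933, limma).

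The spread of the uroplakins between mice of a group was among the widest in the tissue. The SD within groups of log2(FPKM + 1) was 1.39 for Upk3a, 1.14 for Upk2, 1.01 for Upk1b, 0.79 for Upk1a and 0.78 for Upk3b, against a median of 0.26 for all genes tested. Upk3a ranked 8 among 13148 genes, Upk2 23 and Upk1b 39. Upk1a and Upk3b ranked 109 and 122, within the widest 0.928%. The urothelial surface gene Psca ranked 2 with an SD of 1.89, and Krt15, a keratin of basal epithelial cells, ranked 25 with 1.11. Other urothelial keratins and surface genes varied less. Their standard errors in CKD against control mice were 0.20 for Krt7, 0.28 for Upk3bl, 0.30 for Cldn4, 0.37 for Krt20 and 0.47 for Krt19. Those of Psca and Krt15 were 1.09 and 0.65.

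**Figure D3:**
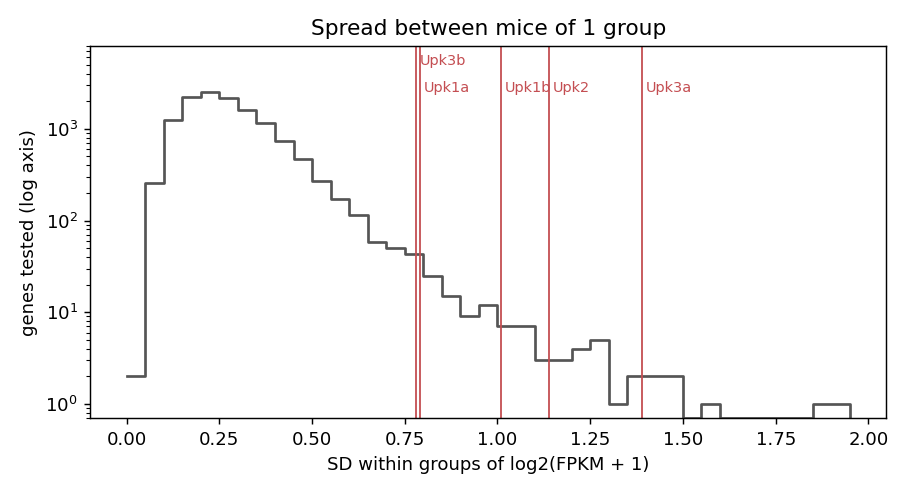
Number of genes tested (vertical axis, log scale) by the SD within groups of log2(FPKM + 1) (horizontal axis), with red lines at the 5 uroplakin genes. The lines lie between 0.78 and 1.39, in the right tail of a distribution with a median of 0.26.

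Upk1a, Upk1b, Upk2 and Upk3a each had another member as the gene most like them, and Upk3b did not. For each member, all other genes tested were ranked by Pearson's r of log2(FPKM + 1) over the 12 mice after each group mean was subtracted. This r is a description, since the values compared come from the same libraries. The gene most like Upk1b was Upk3a (r = 0.98), and the most like Upk3a was Upk1b. Krt5, the basal cell keratin, was second for both, with r = 0.96 for Upk1b and 0.97 for Upk3a. For Upk2 the order was Upk3a (r = 0.96), Sprr2a3 (r = 0.95), a small proline-rich protein of the cornified envelope, and Krt5 (r = 0.95). For Upk1a it was Upk1b (r = 0.93), Upk3a (r = 0.92) and Gm20518 (r = 0.91), a predicted gene. The third gene for Upk1b was Baiap3 (r = 0.94) and for Upk3a it was Upk2 (r = 0.96).

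Upk3b was less like the other members. Its r was 0.73 with Upk3a, 0.75 with Upk2, 0.69 with Upk1a and 0.68 with Upk1b, and its nearest genes were Ocel1 (r = 0.93), Psca (r = 0.92) and Vsig2 (r = 0.92). Upk3a ranked 265 in likeness to Upk3b. The difference between these r values was not tested.

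The same 5 mice were highest for Upk1b, Upk2 and Upk3a, and this was also so for Krt5 and Krt15. It held for 11 of the 13132 genes tested that had a value in every mouse, or 0.0838%, a count that includes Upk3a, whose mice set it. The count was made after the values were seen, and the share that chance would give was not worked out. Besides Upk1b, Upk2, Upk3a, Krt5 and Krt15, the 11 were Ctse, Sptssb, Efcab12, Gsdmc2, Ly6d and Baiap3. In the order of mice used above, Krt5 was 0.0804, 2.2, 3 and 0.0361 FPKM in control mice and 3.9, 0.423, 0.0207 and 0.816 FPKM in CKD mice. Its CKD+Fe values were 0.476, 2.95, 2.46 and 0.422 FPKM. Krt14, another basal keratin, and Foxa1, a transcription factor of urothelial differentiation, had the same 5 highest mice but were too low for the fit, at most 1.65 and 0.817 FPKM. Of the other urothelial list genes too low for the fit, Trp63, Grhl3 and Shh shared 3 and Krt13 shared 2 of their 5 highest mice with Upk3a. Most other tested keratin, surface and regulator genes shared few of these mice. Psca shared 4, Fxyd3 and Gata3 3, and Krt7, Krt19, Upk3bl and Pparg 2. Cldn4, Rxra, Elf3 and Klf5 shared 1, and Krt20 shared 0. For Upk1a 4 of these 5 mice were among its 5 highest, and for Upk3b 3.

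**Figure D4:**
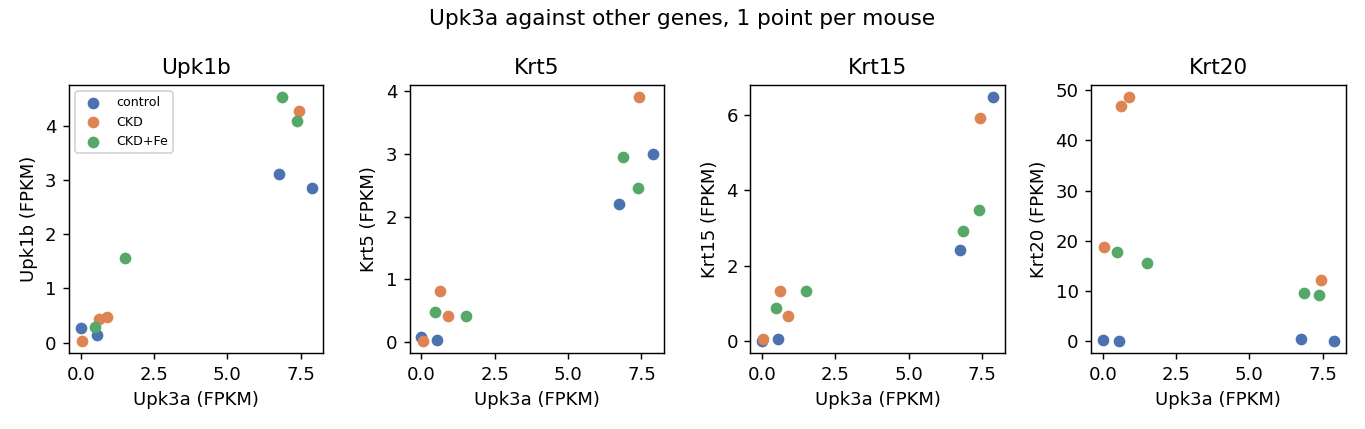
Upk3a (horizontal axis, FPKM) against Upk1b, Krt5, Krt15 and Krt20 (vertical axes, FPKM), with 1 point per mouse coloured by group. For Upk1b, Krt5 and Krt15 the same 5 mice are high as for Upk3a, while Krt20 is high in CKD mice with low Upk3a.

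The balance between the members was compared as the difference of their log2(FPKM + 1) within each mouse, a measure chosen after the values were seen. For 10 pairs in 3 comparisons, 30 exact two-sided permutation tests were made, and the smallest p that 4 mice against 4 allow is 0.0286. Upk1a exceeded its partner Upk2 by 1.20 ± 0.45 in CKD and 0.08 ± 0.65 in control mice (SD, n = 4, exact permutation p = 0.0286, adjusted p = 0.429 over the 30 tests). Upk2 minus Upk3b was -0.88 ± 0.34 in CKD and 0.36 ± 0.69 in control mice (exact permutation p = 0.0286, adjusted p = 0.429). Neither passed the correction, which a pair could pass only if most of the 30 tests reached 0.0286, so the adjusted p cannot decide here. That all 4 CKD mice lay on 1 side of all 4 control mice in both is what p = 0.0286 states (exact permutation) and adds nothing to it. In CKD mice 022301, 110310 and 120102 Upk2 was 0.454, 0.0593 and 0 FPKM. Within these mice the difference was thus mostly the value of the other gene of the pair. Between CKD and control mice, however, Upk2 moved more (log2 fold change -0.84) than Upk1a (0.28) or Upk3b (0.39). None of these changes was called (limma). For the pair of Upk1b and Upk3a, Upk1b minus Upk3a was -0.55 ± 0.68, -0.31 ± 0.28 and -0.35 ± 0.33 in control, CKD and CKD+Fe mice (exact permutation p from 0.514 to 0.857).

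Before rescaling, other genes of the urothelium were called about as often as all genes were. Of 11 keratins and surface genes, 9 were tested, and the CKD mice had 5 at a higher and 0 at a lower level (limma against control mice, adjusted p under 0.05), beside 54.6% higher over all genes. The median log2 fold change of the 9 was 1.40, beside 0.502 for all genes. Before rescaling the share called was near that of all genes, so this count is no result about the urothelium. The 4 tested genes that were not called were Krt5 (log2 fold change -0.04), Krt15 (0.02), Psca (0.41) and Fxyd3 (1.12), with adjusted p from 0.143 to 0.978 (limma). Their r with Upk3a was 0.97, 0.94, 0.75 and 0.70. The genes called were Krt20, Krt19, Cldn4, Krt7 and Upk3bl, with r from -0.48 to 0.54. Standard errors were 0.55 to 1.09 for the genes not called and 0.20 to 0.47 for those called. A gene that varies within groups as Upk3a does is harder to call, so r and the calls are not independent. All 5 called genes were also higher after median-of-ratios rescaling and quantile normalization, beside 27.2% and 23.3% of all genes. Whether these calls come from urothelial cells was not tested. Krt20, a keratin of umbrella cells that also occurs in injured tubules, was between 0.0221 and 0.348 FPKM in control mice. It was 12.2, 48.6, 18.8 and 46.9 FPKM in CKD mice 021320, 022301, 110310 and 120102. Mouse 021320, the only CKD mouse with high Upk3a, was thus the lowest CKD mouse for Krt20, a gene with a log2 fold change of 4.60 over control mice (adjusted p = 4.49e-07, limma). Krt19, a keratin of simple and ductal epithelia, rose by 3.89 (adjusted p = 1.11e-05) and Cldn4, a tight junction claudin of collecting ducts and urothelium, by 2.88 (adjusted p = 3.26e-06).

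Upk3bl, the paralog that lies downstream of Upk3b on the same strand, was among the 5 genes. Control values were 0.0764, 0.255, 0.41 and 0 FPKM, CKD values 2.73, 2.66, 1.31 and 1.96 FPKM, and CKD+Fe values 4.86, 0.881, 2.01 and 2.73 FPKM. All 4 CKD values exceeded the highest control value, which was so for none of the 5 members. Over all genes tested, 55.1% had groups that did not overlap in this comparison. CKD mice exceeded control mice by 1.40 on the log2 scale (adjusted p = 0.000649, limma). The difference was 1.20 with median-of-ratios rescaling (adjusted p = 0.00147) and 0.74 with quantile normalization (adjusted p = 0.0347). CKD+Fe mice differed from CKD mice by 0.10 (adjusted p = 0.993, limma). It ranked 7530 in likeness to Upk3a, with r = -0.06.

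Of 9 regulators of urothelial differentiation, 5 were tested. In CKD against control mice 4 were higher and 0 lower, beside 54.6% and 13.3% of all genes, and 2 were higher and 1 lower after either rescaling. Among the 4 were Elf3 (log2 fold change 2.02, adjusted p = 0.00013, limma) and Klf5 (1.61, adjusted p = 2.61e-05), epithelial transcription factors, which were higher under both rescalings. Pparg, a nuclear receptor that drives uroplakin expression, was also higher by 0.62 (adjusted p = 0.027), and Gata3 by 0.52 (adjusted p = 0.0436), but neither was called after either rescaling, where Gata3 was at -0.03 and -0.15. Rxra, the partner receptor of Pparg, was not called (-0.41, adjusted p = 0.084, limma) but was lower after median-of-ratios rescaling (-1.01, adjusted p = 0.00112) and quantile normalization (-0.72, adjusted p = 0.00942). Trp63, Grhl3, Foxa1 and Shh were too low for the fit. Of 7 genes of vesicle traffic, all tested, 4 were higher and 1 lower, beside 54.6% and 13.3% of all genes. After median-of-ratios rescaling 1 was higher and 3 lower, beside 27.2% and 31% of all genes, and after quantile normalization 2 and 2, beside 23.3% and 25.6%. The median log2 fold change was 0.62 for the regulators and 0.35 for the traffic genes. Rab27b, a GTPase of the uroplakin vesicles, was higher by 1.11 (adjusted p = 0.00217, limma), or by 0.30 with quantile normalization (adjusted p = 0.307), and the sorting nexin Snx31 was lower at -1.93 (adjusted p = 0.000125). Against CKD mice, none of the 42 tested genes of all 8 lists was called in CKD+Fe mice. Against control mice, CKD+Fe mice had 5 keratin and surface genes, 4 regulators and 4 traffic genes higher and 1 traffic gene lower, beside 54.4% higher and 11.0% lower over all genes. The keratin count stayed at 5 and 0 after either rescaling, beside 26.1% and 19.8% higher over all genes. Regulators were then 3 higher and 1 lower with median-of-ratios rescaling and 1 and 1 with quantile normalization, and traffic genes 1 and 3, and 2 and 3.

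Markers of neighbouring tissue also varied between mice, in part in another order than the uroplakins. Of the 9 papilla and collecting duct genes the summed level was 477 to 2122 FPKM in control, 314 to 622 FPKM in CKD and 415 to 680 FPKM in CKD+Fe mice, and none was at 0 in a mouse. The water channel Aqp2 was 230, 285, 964 and 153 FPKM in control mice, and 042301 and 012822, the control mice with high uroplakins, were its 2 highest mice of all 12. In CKD mice Aqp2 was 153, 97.0, 284 and 73.3 FPKM, where 110310, the lowest CKD mouse for Upk3a, was the highest. In CKD+Fe mice it was 124, 243, 206 and 215 FPKM, so that 122320, with 1.51 FPKM of Upk3a, was level with the high mice 062910 and 111710. The urea transporter Slc14a2 was 13.1, 3.9, 40 and 0.245 FPKM in control mice. Over the 9 genes, r with Upk3a, made as above, ran from 0.18 for Slc6a12 to 0.70 for Aqp4, which ranked 75, with 0.59 for Aqp3 and Akr1b3, 0.56 for Fxyd4, 0.46 for Aqp2 and 0.38 for Slc14a2. Aqp4, Fxyd4 and Akr1b3 shared 4 of their 5 highest mice with Upk3a, and the other papilla genes 2 or 3. Of the list, Aqp3 (log2 fold change -1.28, adjusted p = 0.00139, limma) and Aqp2 (-1.24, adjusted p = 0.0415) were lower in CKD mice, although with quantile normalization Aqp2 was not called (-0.92, adjusted p = 0.12) and 6 of the list were lower after median-of-ratios rescaling. The list's median was -0.67, and in CKD+Fe against control mice 0 of the 9 were called, beside 54.4% higher and 11.0% lower over all genes, with 5 lower after median-of-ratios rescaling and 1 after quantile normalization.

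Among 5 mesothelial genes, whose summed level was 44.1 to 64.9 FPKM in control, 21.6 to 47.2 FPKM in CKD and 30.4 to 48.1 FPKM in CKD+Fe mice, most of the sum came from Gpm6a and Wt1, which other kidney cells also express. The defining markers were low: Lrrn4 was at most 0.324 and Muc16 at most 0.367 FPKM, both at 0 in all control mice. Msln, another defining marker, was 0, 0.709, 0.87 and 0 FPKM in control mice, where the mice at 0 were those with the least Upk3b. It was 1.03, 2.17, 0.14 and 4.08 FPKM in CKD mice and 0.86, 1.07, 2.07 and 3.64 FPKM in CKD+Fe mice. The CKD+Fe mouse highest for Upk3b, 122320, was also the highest of its group for Msln, Lrrn4 and Muc16, but 042702, second for Upk3b, was the lowest for Msln. In CKD mice 021320 had the most Upk3b but 1.03 FPKM of Msln, while 120102 had the most Msln with 1.37 FPKM of Upk3b. Of 5 smooth muscle genes, with sums of 31.7 to 66.4, 79.7 to 131 and 83.8 to 147 FPKM in control, CKD and CKD+Fe mice, Actg2 of visceral muscle was 2.16 FPKM in control mice 012822 and 042301 and 0.124 and 0.204 FPKM in the others. In CKD mice Actg2 was instead highest in 110310, at 1.18 FPKM, with 0.267 FPKM in 021320, and in CKD+Fe mice it ran from 0.462 to 1.32 FPKM, the highest in 111710. The 4 adipocyte genes summed to 49.3 to 121, 30.7 to 70.3 and 53.8 to 201 FPKM, the highest in 122320. In every mouse but 122320 most of this sum was Fabp4, with 120 of 121 FPKM in control mouse 042301. Cfd was highest in 122320, at 96.2 FPKM, followed by 111710 and 012822, and was at most 0.823 FPKM in the other mice. Adipoq, Cfd and Plin1 reached 1 FPKM in fewer than 4 mice and so did not enter the fit, although Cfd and Adipoq were high in 122320. The test of Fabp4 alone thus does not measure fat. In CKD against control mice, 54.6% of all genes were higher and 13.3% lower. Of 3 mesothelial genes tested, 1 was higher (Wt1) and 1 lower (Gpm6a). Of 5 smooth muscle genes 2 were higher, Des (log2 fold change 1.20) and Acta2 (1.14). Actg2 (-0.39), Myh11 (-0.31) and Cnn1 (-0.25) were not called. Acta2 made up most of the smooth muscle sum, with means of 35.9 FPKM in control and 78.7 FPKM in CKD mice. Fabp4 was lower as the 1 adipocyte gene tested, and Lrp2 was lower of 3 tubule genes. Wt1 was not called after median-of-ratios rescaling (adjusted p = 0.113, limma) or quantile normalization (adjusted p = 0.287). Smooth muscle genes were then 1 higher and 1 lower, and 1 higher and 3 lower, and tubule genes 0 higher and 1 lower, and 2 higher and 1 lower. The part of the papilla, pelvic wall or adjoining fat in each sample was not measured, and its part in the uroplakin values was not tested.

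**Figure D5:**
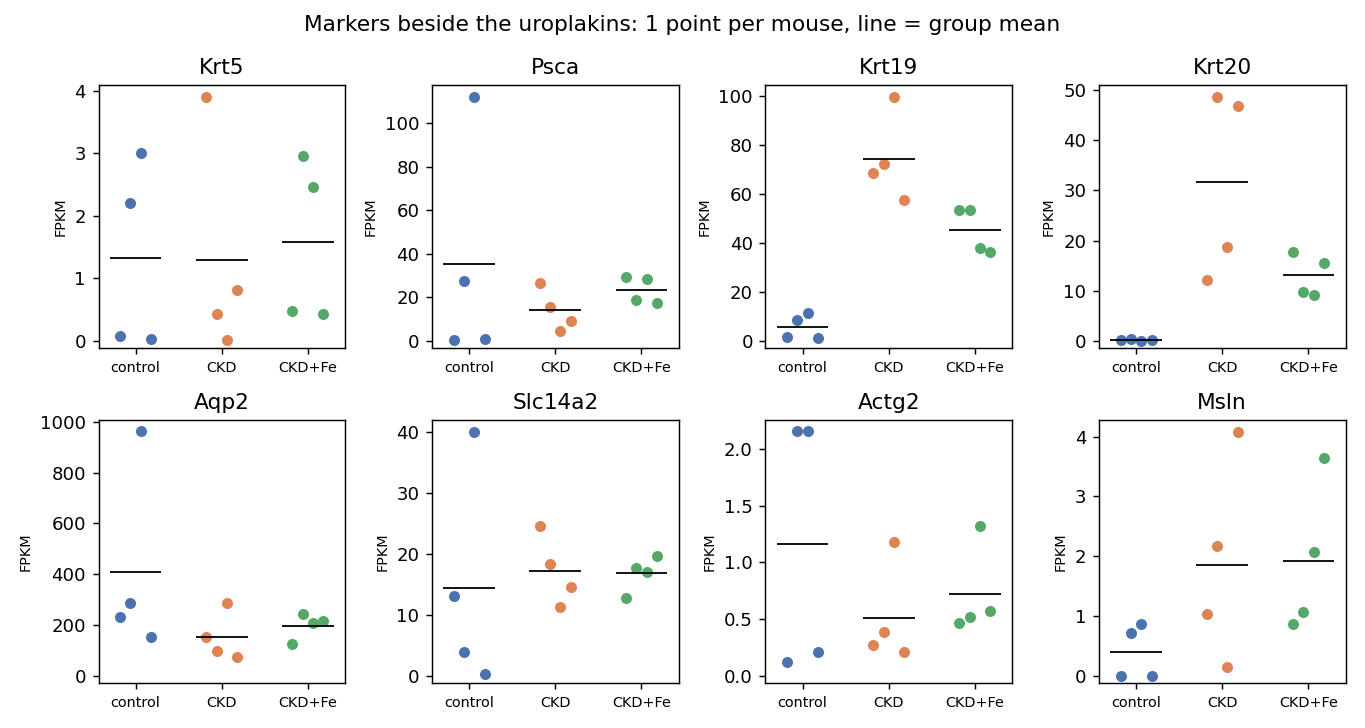
FPKM of 8 marker genes (vertical axes) in control, CKD and CKD+Fe mice, with 1 point per mouse and a line at the group mean. Krt5 varies within every group with the same 5 highest mice as Upk3a, Psca varies in control and CKD mice but runs only from 17.6 to 29.2 FPKM in CKD+Fe mice, Krt19 and Krt20 lie higher in all 8 adenine-fed mice than in the 4 control mice, and Aqp2 is highest in 1 control mouse at 964 FPKM.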

How the data were processed

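The authors deposited FPKM per protein-coding gene and mouse, from stranded mRNA libraries sequenced with 50 single-end cycles. The submitters' processing notes name STAR 2.5.2, Cufflinks 2.1.1 and GRCm38; their settings, strand included, are not given in the sources used here. Starts in the table are counted from 0 and were raised by 1. The 30 values marked as failed were treated as missing; no uroplakin value was among them. FPKM are relative to each mouse's total, so total RNA could not be compared.

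Log2(FPKM + 1) was fitted with limma 3.58.1 in R 4.3.3 (all 12 mice, variance trend) over the 13148 genes that reached 1 FPKM in 4 or more mice, with two-sided Benjamini-Hochberg adjusted p values and a threshold of 0.05. Exact permutation tests used all 70 arrangements. The limma step was tested on simulated data. Read numbers were estimated from the lowest peak of FPKM times length over genes with 1 listed transcript of 800 to 6000 bases, and are approximate. P values measure the spread between mice. The groups share no mouse numbers, so nothing was paired.

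The uroplakins and the 8 gene lists (53 genes) were chosen with earlier results of these data known. Named genes were the members, up to 4 called genes per list with the largest fold, defining markers near 0, and the 3 genes most like each member. Psca, Krt14, Foxa1, Slc14a2, Actg2, Msln, Upk3bl, Fxyd3, Rxra, the untested urothelial genes, further papilla genes and the genes with the same highest mice were added after their values were seen. Alternatives were a pseudocount of 0.1, other filters, 2 rescalings, 2-group fits, array weights, no trend and each mouse left out, and, added after seeing the data, 3 mice left out together.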

Additional observations from a re-analysis of the deposited data

Results flagged for a closer look

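In 3 of the 15 sets of 4 mice, 5 genes in 3 groups, the gap between the highest mouse and the next took up more of the group's whole range than Dixon's 95% critical value for 4 samples. All 3 were CKD mouse 021320, at 4.29 FPKM for Upk1b (gap 0.898 of the range), 2.93 FPKM for Upk2 (0.845) and 7.43 FPKM for Upk3a (0.885). The gaps were taken on FPKM. On log2(FPKM + 1), the scale of the fit, each of these 3 gaps takes up a smaller part of the range, so the flags depend on the scale. Chance flags about 1 in 20 such sets if values are normally distributed, which was not checked for these FPKM. The 3 are not independent, since these genes vary together between mice. The values of 021320 lay within the range of the high control and CKD+Fe mice for Upk1b, Upk2 and Upk3a.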

How the results depend on the processing

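The FPKM of a few mice and the scale decided the sign of several uroplakin differences, and the causes were not tested. Of the alternative values of the members' log2 fold changes, 265 kept their direction and side of the threshold, 27 changed sign and 8 came past the threshold. With array quality weights 1 member was called in CKD against control mice (Upk3b 1.0, adjusted p = 0.0182, limma) and 2 in CKD+Fe against control mice (Upk3b 1.16, adjusted p = 0.00364; Upk1a 1.0, adjusted p = 0.043). Without the 3 mice that stood apart, 1 was called in each, Upk3b both times (1.15 and 1.27). Leaving out 1 mouse gave 0 to 1 in each: Upk3b without control mouse 042301 (0.91 and 1.28), and Upk1a without control mouse 012822 (1.12 in CKD+Fe against control mice). Between CKD+Fe and CKD mice, 3 list genes were called with array weights and 2 without the 3 mice.

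In CKD against control mice the sign turned for Upk1a with median-of-ratios rescaling (-0.13) and quantile normalization (-0.51), for Upk3b with quantile normalization (-0.36), and with array weights and without the 3 mice for Upk1b (0.29 and 0.30) and Upk3a (0.48 and 0.37). Leaving out 1 mouse gave -0.04 to 0.68 for Upk1a and -0.76 to 0.05 for Upk1b. In CKD+Fe against control mice it turned with quantile normalization for Upk1a (-0.05), Upk1b (-0.21) and Upk3a (-0.28), and with median-of-ratios rescaling for Upk3a (-0.04). Upk2 was 0.09 with a pseudocount of 0.1, 0.34 with array weights and 0.51 without the 3 mice. Leaving out 1 mouse gave -0.68 to 0.24 for Upk2 and -0.26 to 0.79 for Upk3a. None of the values that turned passed the threshold. The 2 rescalings moved the median log2 fold change of all genes from 0.502 to -0.026 and -0.029 in CKD against control mice. A filter of a mean of at least 5 FPKM left no member to test. No paired analysis was possible because the groups share no mouse numbers. Low FPKM rest on few reads, and intervals of over 2 log2 units leave moderate changes undetectable.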
